A study of Homo sapiens with 4 samples.

Results

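The SOX genes encode transcription factors that bind DNA through an HMG box, and 9 of them were examined at their own loci: SOX1, SOX2, SOX14, SOX21, SOX4, SOX11, SOX9, SOX10 and SOX17. The members were the listed regions within 20 kb of these gene spans, which were given in hg19 and rounded to 1 kb. They came to 12 of 32543 CHD5 peaks and 161 of 257073 H3K27me3 regions. The regions come from chromatin immunoprecipitation with sequencing in the SH-SY5Y line, human neuroblastoma cells that become neuron-like under retinoic acid. All 4 libraries of the series came from cells kept in 10 uM retinoic acid for 8 days, so no untreated state was measured. In the CHD5 library, FBio-CHD5, a tagged form of the chromodomain helicase CHD5, was captured on streptavidin beads from cells expressing it. In the H3K27me3 library, an antibody precipitated the histone mark from cells that also expressed FBio-CHD5. A streptavidin pull-down from cells with FBio-Ctrl and an input library from FBio-CHD5 cells complete the series, and region lists of these were not used here. Each library is the only one of its group and all come from 1 cell line, so no value has a replicate error and no difference between libraries could be tested. The promoter driving the tagged protein is not given in the sources used here, and no expression values were used, so the cell type was not checked against markers.

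H3K27me3 is written by the Polycomb repressive complex and marks genes held silent, including many developmental transcription factors. CHD5 is a chromatin remodeler of the NuRD class that is found mainly in the nervous system. SOX proteins fall into subgroups by their HMG box. Subgroup B1 (SOX1, SOX2) keeps neural progenitors undifferentiated, and subgroup B2 (SOX14, SOX21) counters it. Subgroup C (SOX4, SOX11) acts in neurons that have left the cell cycle and in sympathetic neuron precursors. Subgroup E (SOX9, SOX10) acts in neural crest and glia, with SOX9 also required in cartilage and testis, and SOX17 of subgroup F acts in endoderm and blood vessels.

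SOX17 was left out of the search of the RefSeq promoter table by its chromosome. Of the 9 members, the 4 that the search found are shown with their upstream sequences. Their loci had H3K27me3 alone (SOX1), CHD5 alone (SOX2, SOX4) or both (SOX21). They are 250 bases ending at the base before the RefSeq start, written 5′ to 3′ on the gene's strand, with every CpG in capitals. Their positions are in GRCh38.p14, a later build than that of the lists, so peaks cannot be placed on them base by base. SOX1 is at chr13:112066899-112067148 (plus strand), SOX2 at chr3:181711675-181711924 (plus strand), SOX21 at chr13:94712546-94712795 (minus strand) and SOX4 at chr6:21593501-21593750 (plus strand).
SOX1: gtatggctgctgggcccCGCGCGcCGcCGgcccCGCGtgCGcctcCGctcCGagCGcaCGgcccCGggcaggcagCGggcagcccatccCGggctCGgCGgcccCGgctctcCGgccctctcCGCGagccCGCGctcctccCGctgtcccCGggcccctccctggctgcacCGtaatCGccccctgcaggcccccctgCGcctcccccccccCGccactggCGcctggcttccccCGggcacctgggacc
SOX2: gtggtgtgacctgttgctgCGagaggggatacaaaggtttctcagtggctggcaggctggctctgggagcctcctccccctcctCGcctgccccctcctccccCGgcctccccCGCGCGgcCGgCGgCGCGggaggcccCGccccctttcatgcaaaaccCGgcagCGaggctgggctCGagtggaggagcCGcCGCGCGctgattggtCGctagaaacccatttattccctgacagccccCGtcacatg
SOX21: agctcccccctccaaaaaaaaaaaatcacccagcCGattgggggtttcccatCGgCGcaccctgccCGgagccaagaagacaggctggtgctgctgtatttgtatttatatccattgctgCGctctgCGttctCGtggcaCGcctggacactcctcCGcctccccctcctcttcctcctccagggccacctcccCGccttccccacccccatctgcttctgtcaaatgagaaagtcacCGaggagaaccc
SOX4: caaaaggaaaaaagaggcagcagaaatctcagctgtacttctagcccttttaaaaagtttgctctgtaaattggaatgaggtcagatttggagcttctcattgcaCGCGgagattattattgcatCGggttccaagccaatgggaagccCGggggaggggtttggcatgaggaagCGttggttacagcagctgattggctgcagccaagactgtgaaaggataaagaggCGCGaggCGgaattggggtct

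SOX1, whose locus carried H3K27me3 and no CHD5 peak, had 31 CpGs and 82.0% GC in this stretch, and 89.1% of 35116 RefSeq promoters had fewer CpGs. SOX2, with 1 CHD5 peak and no H3K27me3, had 20 CpGs and 68.8% GC. SOX21, with both, had 11 CpGs, the median of all promoters, and 58.8% GC. SOX4, with the highest share of CHD5 coverage of the 9 windows and no H3K27me3, had 8 CpGs and 48.8% GC, which was higher than in 29.5% of promoters. On both strands, CCAAT, the CCAAT box, was found 4 times at SOX4, once each at SOX2 and SOX21 and 0 times at SOX1, against at least 1 match in 32.0% of all promoters. AACAAT, a core of SOX binding motifs, was found in none of the 4 and in 8.98% of all promoters. AGGTCA, a half-site of nuclear receptors, was found 1 time at SOX2 and 1 time at SOX4, against 12.1% of all promoters. TATAAA was found 1 time, at SOX21, against 10.7%. None of the 4 motifs contains another, and a match is a match of letters only.

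The 9 loci fell into 4 patterns. CHD5 peaks without H3K27me3 were listed at 3 genes, SOX2, SOX4 and SOX11. H3K27me3 without CHD5 was listed at 3 genes, SOX1, SOX14 and SOX17. Both were listed at 2 genes, SOX21 and SOX9, and neither at 1 gene, SOX10. Within the gene spans alone no gene had both: SOX21 had 0 CHD5 peaks and 6 H3K27me3 regions, and SOX9 had 2 CHD5 peaks and 0 H3K27me3 regions. Thus 5 of 9 genes had a CHD5 peak and 5 of 9 had an H3K27me3 region. For scale, the genome was divided into 67243 windows of 46 kb, the median length of the gene spans with their flanks. A CHD5 peak lay in 30.3% of these windows and an H3K27me3 region in 27.8%. CHD5 alone was found in 26.0%, H3K27me3 alone in 23.6%, both in 4.22% and neither in 46.1%. The windows include stretches far from genes and gaps of the assembly, so they are a background of position and not of genes.

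**Figure D1:**
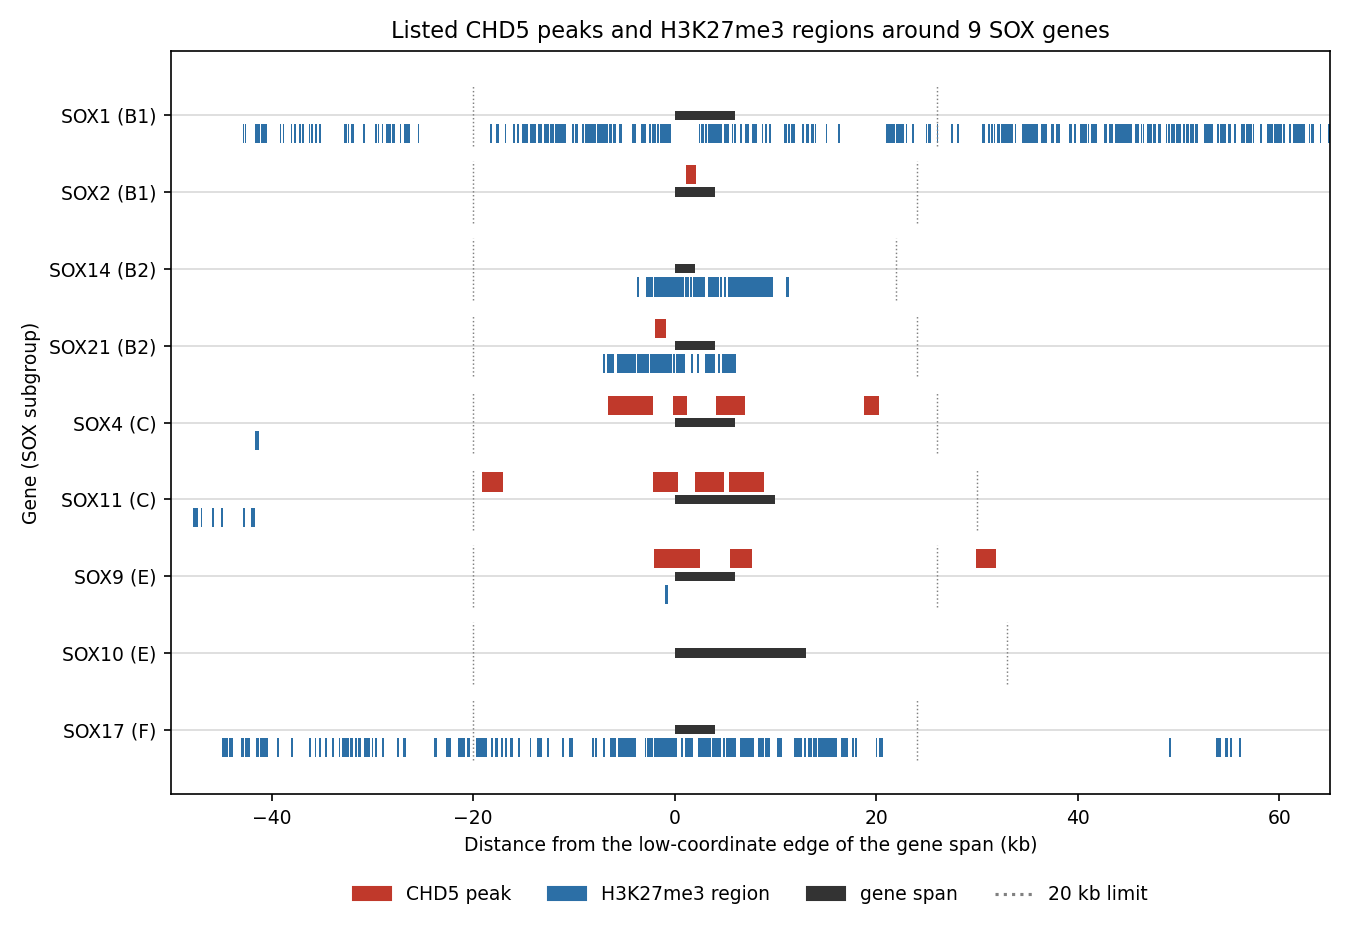
Positions of listed CHD5 peaks (above the line) and H3K27me3 regions (below it) at 9 SOX genes, as distance in kb from the low-coordinate edge of each gene span, with dotted lines at 20 kb from the span. SOX2, SOX4 and SOX11 show CHD5 and no H3K27me3 between the dotted lines, SOX1, SOX14 and SOX17 the reverse, and SOX21 and SOX9 both.

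By number of peaks and share of the window covered, the subgroup C genes had the most CHD5, although SOX9 had a stronger peak than any at SOX11. SOX4, at chromosome 6 from 21593001 to 21599000, had 4 peaks that covered 22.3% of its window of 46 kb, and SOX11, at chromosome 2 from 5832001 to 5842000, had 4 peaks that covered 21.9% of 50 kb. Of the windows of the genome, 2.0% held at least 4 CHD5 peaks, and 99.0% and 98.9% had less coverage than SOX4 and SOX11. Neither gene had an H3K27me3 region within 20 kb.

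SOX4 is intronless and read toward higher coordinates, so its low-coordinate edge is its 5′ end. Its strongest peak lay upstream, from 21586356 to 21590863, ending 2.14 kb before the span. It was 4508 bp wide and had a score of 576.95, higher than 95.8% of all CHD5 peaks and 97.3% of those on chromosome 6. Scores come from the authors' peak caller, start at 50 and rank peaks within 1 list only. The peak over the 5′ edge, from 21592844 to 21594262, was among the weakest of the list, with a score of 57.62, higher than 8.82% of peaks. The peak over the 3′ edge, from 21597077 to 21599936, scored 199.69, higher than 72.3%. A further peak downstream, from 21611769 to 21613245, scored 161.48 at 12.8 kb from the span. The 5′ edge of the SOX4 span thus carried a weaker peak than either the upstream or the downstream side. The nearest H3K27me3 region, from 21551556 to 21551751, lay 41.2 kb below the span.

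SOX11, which is also intronless and read toward higher coordinates, had peaks of nearly even score along the gene. The peak over its 5′ edge, from 5829893 to 5832363, scored 141.57, higher than 58.7% of the list. It reached 363 bp into the span, less than the 1 kb rounding of the spans, so it may end before the gene's start. Inside the gene, the peak from 5833996 to 5836934 scored 112.45 and the peak from 5837422 to 5840816 scored 99.33. The most distant of the 4, from 5812853 to 5814978, lay 17.0 kb below the span and scored 94.43. The gene body was covered over 67.0% of its span, the highest share of CHD5 coverage among the 9 genes, ahead of SOX4 with 53.1% and SOX9 with 50.3%. With 1 library, the order of these shares has no error behind it. The nearest H3K27me3 region lay 41.6 kb below the span, from 5789917 to 5790361, and the nearest regions of both subgroup C genes were thus at a similar distance and on the same side.

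SOX2, at chromosome 3 from 181429001 to 181433000, had a single weak peak. It ran from 181430111 to 181431074 inside the span, was 964 bp wide and scored 54.9, higher than 5.96% of all CHD5 peaks. SOX2 is an intronless gene that lies within the long noncoding gene SOX2-OT, and the peak lies inside both. The next CHD5 peak was 149 kb away, from 181278521 to 181280341, with a score of 235.83. No H3K27me3 region was listed within 1150 kb of SOX2, the longest such distance among the 9 genes. SOX2 thus shared the pattern of SOX4 and SOX11 through 1 peak near the lower limit of the list, and 30.3% of the windows of the genome held at least 1.

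**Figure D2:**
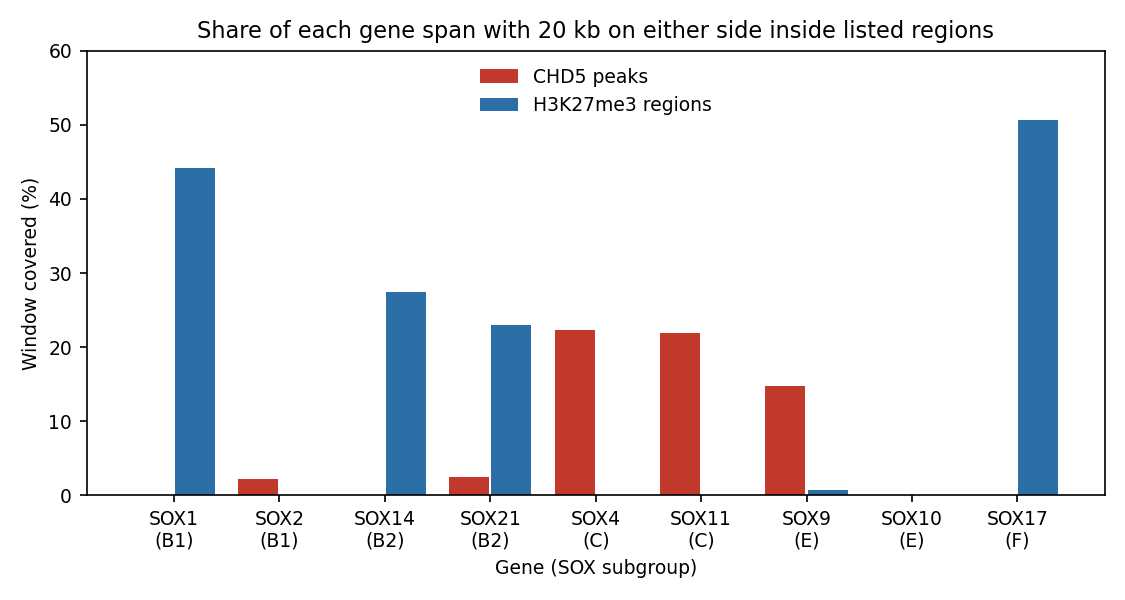
Share (%) of each gene span with 20 kb on either side that lay inside CHD5 peaks (red) and H3K27me3 regions (blue), 1 library each. CHD5 covered 22.3% at SOX4, 21.9% at SOX11 and 14.7% at SOX9, where H3K27me3 covered 0.67% or less, while H3K27me3 covered 23.0% to 50.7% at SOX21, SOX14, SOX1 and SOX17, where CHD5 covered 2.48% or less.

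SOX1, SOX14 and SOX17 were inside H3K27me3 and had no CHD5 peak nearby. A narrow peak caller splits a broad mark, so neighbouring regions with gaps of up to 3 kb were merged into domains, and 1 domain covered each of these spans completely. At SOX1 this required joining across 2701 bp without a region, from -339 to 2362 bp relative to the low-coordinate edge. The domains differed in size. That of SOX17, at chromosome 8 from 55370001 to 55374000, spanned 65.6 kb from 55325093 to 55390715, held 85 regions and was the 233rd widest of 38537. It reached 44.908 kb below the span and 16.715 kb above it. That of SOX1, at chromosome 13 from 112721001 to 112727000, spanned 34.7 kb from 112702684 to 112737360, and a domain of 57.3 kb followed after a gap of 4.56 kb. That of SOX14, at chromosome 3 from 137483001 to 137485000, spanned 15.1 kb from 137479272 to 137494331.

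The wider domains were more loosely filled. Listed regions made up 47.8% of the SOX17 domain and 51.7% of the SOX1 domain, against 76.8% of the SOX14 domain and 76.7% of the SOX21 domain. Joining across up to 1 kb left domains of 18.8 kb at SOX17 and 7.18 kb at SOX1, but of 13.4 kb at SOX14 and 13.2 kb at SOX21. Joining across up to 5 kb gave 96.5 kb at SOX1 and the same width as before at the other genes. The compact domains of subgroup B2 therefore depended least on the joining.

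Median scores divided the genes in the same way, while shares of high-scoring regions did not. Within 20 kb, the median H3K27me3 score was 216 over 16 regions at SOX21 and 210 over 23 regions at SOX14, against 102 over 54 regions at SOX17 and 94.0 over 67 regions at SOX1. The median of the whole H3K27me3 list was 84.6. Regions in the top 10% of the list, with scores of 268 or more, made up 43.8% of those at SOX21, 30.4% at SOX14, 29.6% at SOX17 and 10.4% at SOX1. By number of regions the order of the 4 genes was the reverse: 0.161% of the windows of the genome held at least as many as SOX1, 0.892% as many as SOX17, 6.5% as many as SOX14 and 9.01% as many as SOX21.

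**Figure D3:**
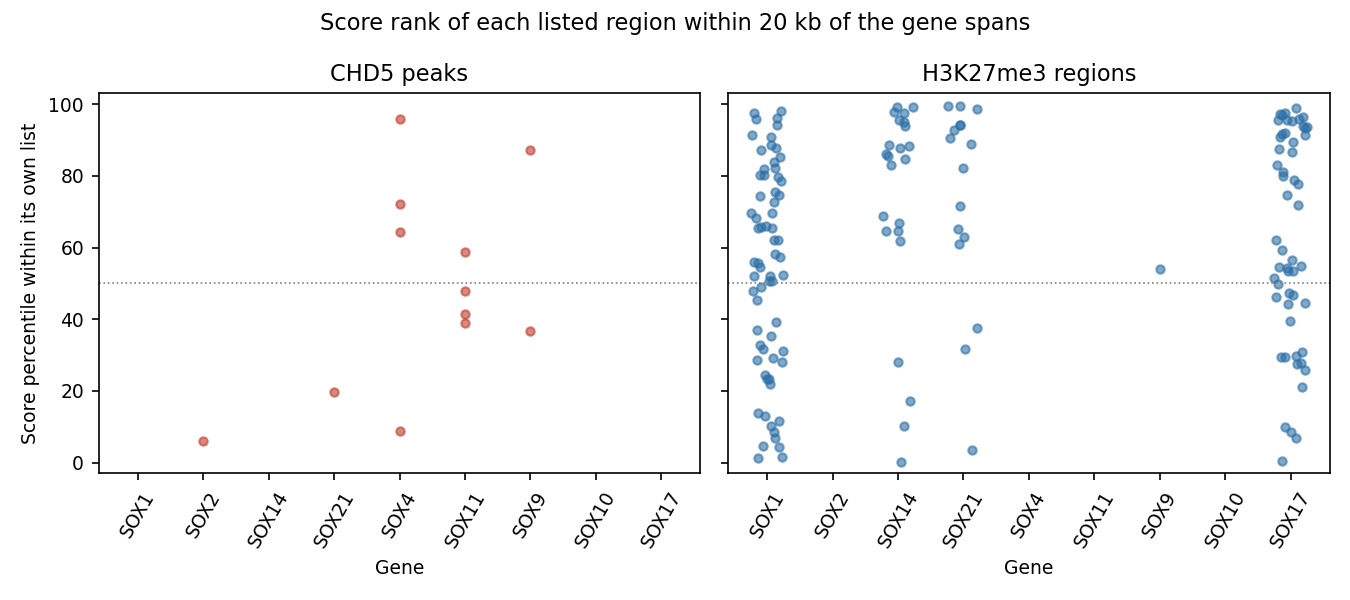
Score of every listed CHD5 peak (left) and H3K27me3 region (right) within 20 kb of each gene span, as its percentile within its own list; points are spread sideways where a gene has more than 5, and the dotted line marks the median of the list. CHD5 peaks run from 5.96 at SOX2 to 95.8 at SOX4, and the highest H3K27me3 region at SOX21 is at 99.5.

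Within the genes the mark was placed differently. SOX14, which is expressed in interneurons of the spinal cord, had 81.4% of its span inside regions, the highest share of the 9. Its low-coordinate edge, where the gene starts, lay inside a region of 1824 bp from 137481581 to 137483404 with a score of 1139.44, and the longest uncovered stretch of the span was 155 bp. SOX17 had 65.2% of its span covered. Its strongest region, from 55367927 to 55369502, scored 970.48 and ended at -0.498 kb from the low-coordinate edge, and both edges of the rounded span lay in regions. The region at the low edge ended at 0.011 kb, and none was listed from 0.227 to 0.644 kb. Edges are rounded to 1 kb, so these lists do not settle whether the gene ends of SOX14 and SOX17 themselves lay in regions.

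SOX1, an intronless gene read toward higher coordinates, had 44.9% of its span covered and an open stretch at its start. No region was listed for 2701 bp, from -339 to 2362 bp relative to the 5′ edge. At its lower side ended a region from 112719549 to 112720661 with a score of 615.29. The upstream sequence of SOX1 printed above has 82.0% GC, a higher share than in 98.3% of promoters. It is placed in GRCh38.p14 and was not located relative to the open stretch, which is in hg19. The part of base composition in the open stretch was not tested. The strongest region at SOX1, from 112712075 to 112713231, scored 698.2 and began at -8.926 kb from that edge.

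The nearest CHD5 peaks to these genes were far away. They lay 493 kb from SOX17, 207 kb from SOX1 and 116 kb from SOX14, and had scores of 247.84, 59.99 and 92.64 in that order. A list shows only what passed its threshold, so weaker binding at these loci was not measured.

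SOX21, at chromosome 13 from 95361001 to 95365000, was the gene where CHD5 lay inside the mark. A domain of 13.2 kb from 95353910 to 95367094 covered its whole span, and regions covered 56.9% of it. The single CHD5 peak, from 95359046 to 95360134, was 1089 bp wide and scored 68.58, higher than 19.7% of CHD5 peaks. All of it lay inside 1 H3K27me3 region, from 95358550 to 95360758, of 2209 bp. That region scored 1554.15, higher than 99.5% of the list and the highest of all 161 regions at the SOX genes. SOX21 is intronless and read toward lower coordinates, so both lay beyond the 3′ edge of its rounded span. The peak was 0.866 kb from that edge, and the region was nearer. Both distances are less than the 1 kb rounding, so their place relative to the gene's own 3′ end is not settled. Around the 5′ edge of the rounded span there was an open stretch of 370 bp, from -40 to 330 bp. It is shorter than the 1 kb rounding of the spans, so it cannot be placed at the gene's start. On its inner side lay a region with a score of 280.0, higher than 90.7% of the list. On its outer side a weak region with a score of 65.21 followed, and then a region from 95365654 to 95367094 with a score of 874.29. No CHD5 peak was listed there.

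SOX9, at chromosome 17 from 70117001 to 70123000, had the opposite proportions. Its strongest CHD5 peak, from 70114915 to 70119524, covered the low-coordinate edge, where the gene starts, and was 4610 bp wide, the widest of the 12. It scored 337.06, higher than 87.3% of all peaks and 84.8% of those on chromosome 17, where the median score was 125 against 117 over all chromosomes. The only H3K27me3 region, from 70116019 to 70116326, lay inside this peak and took up 6.68% of it. It was 308 bp wide, scored 90.59, higher than 54.0% of the list, and ended 0.674 kb before the span. The next H3K27me3 region was 464 kb away. A second CHD5 peak, from 70122507 to 70124652, covered the 3′ edge of the rounded span and scored 90.46. It reached 494 bp into the span, less than the 1 kb rounding of the spans, so it may begin beyond the gene's end. SOX9 thus resembled SOX4 in having peaks over both edges of the rounded span. Of these edge peaks, the stronger was at the start in SOX9 and at the end in SOX4, whose strongest peak lay upstream of the span.

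**Figure D4:**
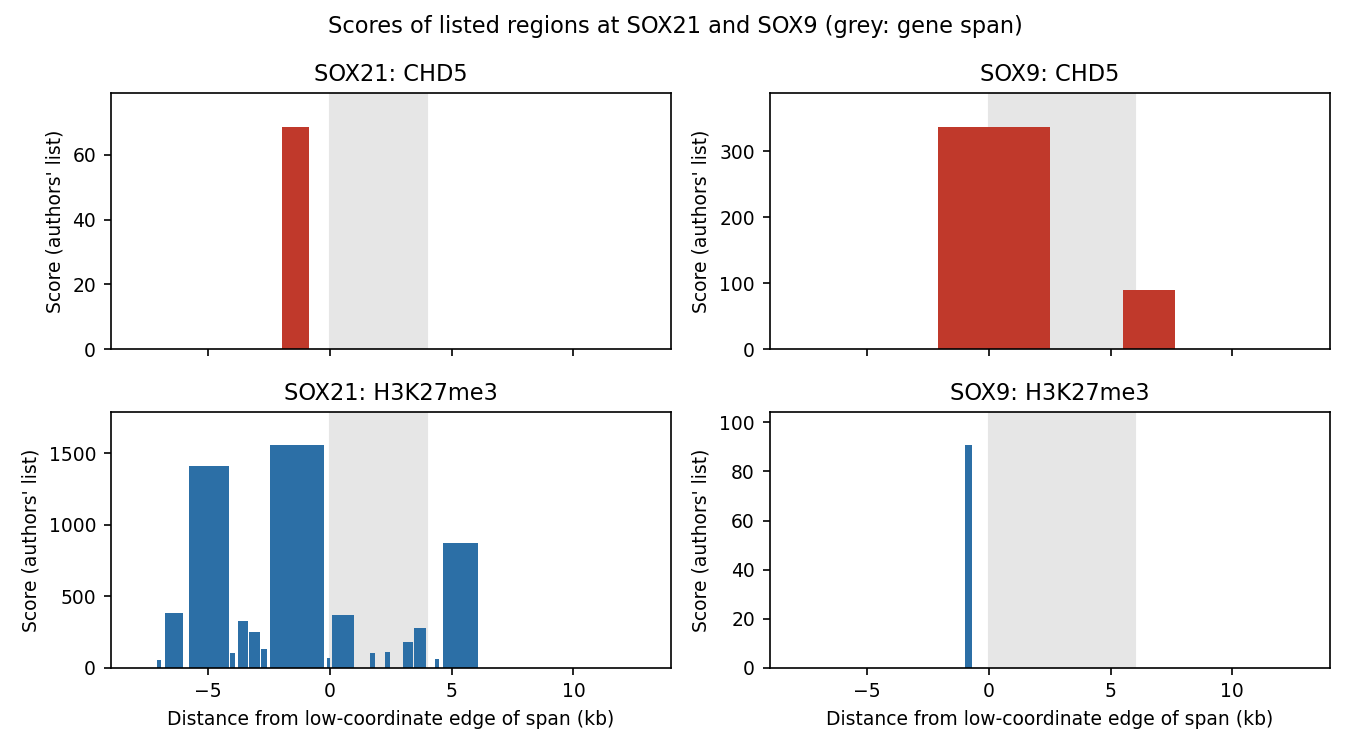
Scores in the authors' lists of CHD5 peaks (top) and H3K27me3 regions (bottom) at SOX21 (left) and SOX9 (right), against distance in kb from the low-coordinate edge of the gene span (grey); bar widths are region widths, and the scales differ between panels. At SOX21 a CHD5 peak of score 68.58 lies within a region of score 1554.15, and at SOX9 a region of score 90.59 lies within a CHD5 peak of score 337.06.

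Over the 12 CHD5 peaks, 2 overlapped H3K27me3 by at least 1 bp, or 16.7% (exact Clopper-Pearson 95% interval 2.09% to 48.4%), where 2.19% of all CHD5 peaks did (2.03% to 2.35%). The intervals cover counting error only and treat peaks as independent, although peaks at 1 gene share a locus. With 12 peaks at 5 genes, the interval reaches down to the share of the whole list. Of the H3K27me3 regions, 2 of 161 met a CHD5 peak, against 0.503% of that list. The 12 peaks had a median width of 2308.5 bp, against 1647 bp in the list, and 8 exceeded the list's median. Their median score was 106, against 117 in the list, and 5 exceeded it. Their scores ranged from higher than 5.96% of the list to higher than 95.8%. Of the 12, 8 touched a gene span, 3 lay at lower and 1 at higher coordinates. The peak farthest inside the limit of 20 kb was that of SOX11 at 17.0 kb, and the nearest beyond it lay 23.9 kb from SOX9, from 70146855 to 70148837, with a score of 102.77. Just outside the limit, H3K27me3 regions lay 20.3 kb from SOX17 and 21.4 kb from SOX1.

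SOX10, the neural crest and glial regulator at chromosome 22 from 38368001 to 38381000, had no row of either list in its window of 53 kb. It overlaps POLR2F in RefSeq, which encodes a subunit shared by the RNA polymerases. The nearest CHD5 peak was 65.9 kb away, from 38300863 to 38302120, with a score of 105.43, and the nearest H3K27me3 region was 410 kb away, from 37957396 to 37957678, with a score of 103.66. Windows with neither made up 46.1% of the genome. Within subgroup E, SOX9 and SOX10 therefore differed in both lists' presence, as did SOX1 and SOX2 within B1. The pair in subgroup C had the same pattern, and the pair in B2 had compact H3K27me3 domains but differed in CHD5, with 1 peak at SOX21 and 0 at SOX14.

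Counts over wider surroundings matched the loci at some genes and not at others. Within 500 kb, SOX4 had 38 CHD5 peaks, SOX9 had 25, SOX11 had 24, SOX10 had 14, SOX21 had 12, SOX2 had 7, SOX14 had 4, SOX1 had 2 and SOX17 had 1. H3K27me3 regions within the same distance numbered 783 at SOX1 and 452 at SOX17, then 26 at SOX14, 23 at SOX21, 12 at SOX11, 6 at SOX4, 3 at SOX9, 2 at SOX10 and 0 at SOX2. Over 3084 windows of 1 Mb, the median was 9 CHD5 peaks (quartiles 2 and 16) and 7 H3K27me3 regions (quartiles 1 and 97.5). SOX10, with no CHD5 peak at its locus, had more CHD5 peaks within this distance than SOX21 or SOX2, which had 1 each. SOX11, with no H3K27me3 region within 20 kb, had more of them within 500 kb than the median window. SOX4, SOX9 and SOX11 were above the upper quartile for CHD5, and SOX1 and SOX17 were above that for H3K27me3. At SOX14 and SOX21 the mark was local: 23 of 26 and 16 of 23 regions lay within 20 kb. SOX2 and SOX10 had few rows of H3K27me3 at any distance examined.

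**Figure D5:**
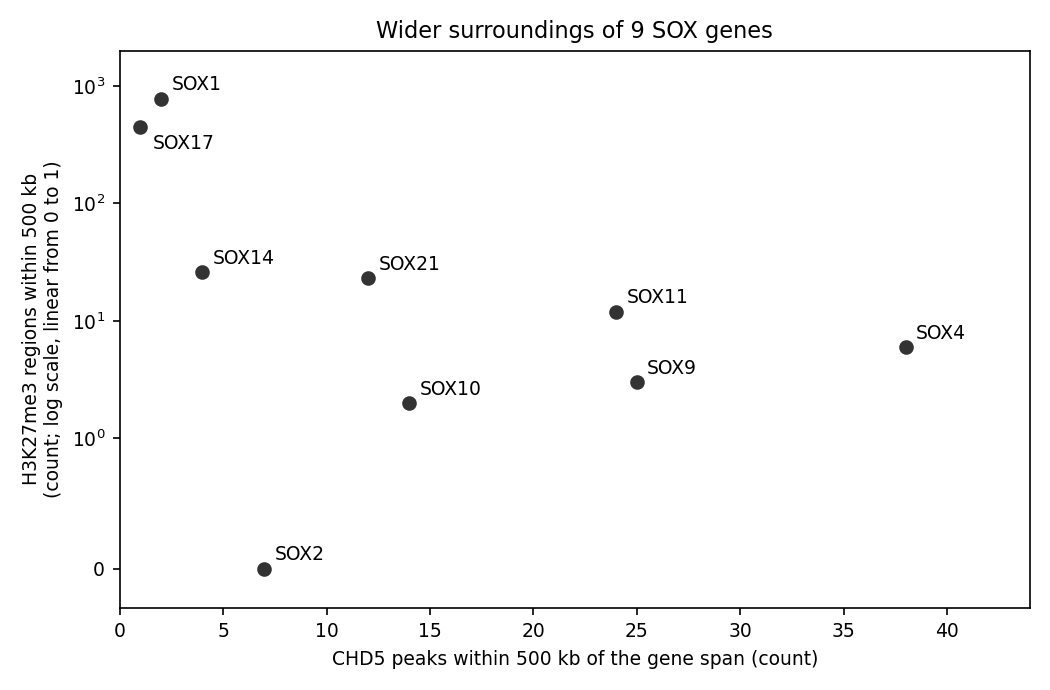
Number of CHD5 peaks (horizontal axis) and H3K27me3 regions (vertical axis, logarithmic above 1) within 500 kb of each of 9 SOX gene spans, 1 point per gene. SOX1 and SOX17 have 783 and 452 H3K27me3 regions with 2 and 1 CHD5 peaks, and SOX4 has 38 CHD5 peaks with 6 H3K27me3 regions.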

How the data were processed

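Region lists of 2 of the 4 libraries were used. Both are MACS peak calls of 1 library each, per the file headers, and the build is hg19, as the submitters' processing notes state. Which aligner, MACS version, calling threshold and background library were used is not given in the sources. The lists carry a score per region, made by the authors' peak caller and deposited with no stated scale, and no read counts, so depth is unknown. A narrow peak caller can split a broad mark such as H3K27me3.

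Gene spans came from a fixed list in hg19, and coordinates are counted from 1. Span edges are rounded to 1 kb, so a row that passes an edge by less than that may not reach the gene's true end. Overlap meant at least 1 bp, and bedtools 2.31.1 gave the same 712 overlapping CHD5 peaks. Interval routines were tested on simulated data and gave exact answers in 50 of 50 sets. Percentiles give the share of a list with a lower value. Windows of 46 kb and 1 Mb ran to the highest region end of each chromosome. All 9 genes and each CHD5 peak within 20 kb are named. RefSeq promoters are given for 4 of 9 genes, and SOX17 was left out of that search by its chromosome. The members and lists were chosen with earlier results of these data known, and the windows, wider distances and motifs were chosen after the data were examined. Other SOX genes were not located in hg19 and are not analysed here. Tools were Python 3.11.15, pandas 2.3.3, numpy 2.4.6, matplotlib 3.10.9 and scipy 1.17.1.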

Additional observations from a re-analysis of the deposited data

How the results depend on the processing

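Of 29 alternatives, 21 left a count within 1.5 times its value, or left the coverage value as it was. Keeping scores at or above the median of each list left 3 genes with a CHD5 peak (SOX4, SOX11 and SOX9) against 5, left 5 peaks against 12, and left 1 overlapping H3K27me3 against 2; SOX2 and SOX21 lost their only peak. With the gene span alone, 27 H3K27me3 regions were counted, and with 50 kb around it 274 regions, against 161 with 20 kb. Of the CHD5 peaks that touched a span, 1 overlapped H3K27me3, that of SOX9, and its overlap lay outside the span. Requiring 50% of the CHD5 peak to overlap left 1, at SOX21. The median H3K27me3 coverage over the 9 genes was 0% of the span and 0.67% with 20 kb on either side. With 50 kb, 7 genes had an H3K27me3 region, SOX4 and SOX11 being added. These changes follow from fewer rows or wider windows by construction. No paired analysis was possible because each group has 1 library. Depth is unknown, so absence from a list is not absence of signal.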
